A study of Mus musculus with 4 samples.

Results

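The proteasome is the multi-subunit protease that degrades ubiquitin-tagged proteins, and its subunit genes were followed here while mouse dendritic cells differentiated in culture from bone marrow progenitors. Members were all genes of the platform annotation whose symbol begins with Psm, a letter from a to g and a number, leaving out the immunoproteasome genes Psmb8, Psmb9 and Psmb10. The rule found 44 of the 8220 genes that the array measured with a probe set of a single gene symbol. Of these, 42 encode subunits, activators or assembly factors, and 2, Psmc3ip and Psme3ip1, match the pattern only by the start of their symbols. Psma8, Psmb11 and Psmf1 were not analysed here.

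The study used 4 expression arrays of total RNA, 1 for each group. The groups were dendritic cells after 10 days of differentiation that were also stimulated with the cytokine tumour necrosis factor alpha (TNF) for 16 hours, cells after 10 days without it, cells after 7 days, and the bone marrow-derived progenitors from which they were grown. The label of the TNF array adds that its progenitors were amplified in vitro. The labels give no strain, genotype, age or number of mice or cultures, and no drug or deletion is named for any group. Because each group is 1 array, every difference below is a difference between 2 arrays with no replicate spread behind it, and no test or p-value is given.

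Ubiquitinated proteins are bound and unfolded by the regulatory particle of the proteasome, made of Psmc ATPases and Psmd subunits, and are cut inside the core particle, a stack of rings built from Psma and Psmb subunits. The beta subunits Psmb5, Psmb6 and Psmb7 carry the catalytic sites of the constitutive core. In immune cells they can be replaced by the inducible subunits Psmb8, Psmb9 and Psmb10, and the resulting immunoproteasome, together with the activator made of Psme1 and Psme2, yields many of the peptides presented on MHC class I molecules. Dendritic cells are known for a high content of immunoproteasome.

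Values are probe-set intensities in arbitrary units, scaled to a common 75th percentile on all 4 arrays. For log2 ratios, values under 105 units, the 40th percentile of all scaled values, were raised to 105, and a ratio was left out where both arrays lay at or under it. The threshold for a call was 2-fold in either direction, and a fold is printed as a bound ("at least") where the dimmer array lay under 428 units, the 60th percentile, or left out where both did. Of the 44 members, 31 lay above 428 units on all 4 arrays, 6 on some and 7 on none, and 2, Psmc1 and Psmd6, were at or under 105 units on every array. Intensities of different probe sets are not comparable as transcript amounts, so genes are compared only by their differences between arrays.

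The one error estimate at hand comes from genes read by several probe sets, as the difference between the ratios of the 2 brightest. Where each exceeded 1000 units on the pair of arrays compared, that log2 difference had an SD of 0.48 for day 7 over progenitor (189 genes), 0.63 for day 10 over day 7 (198 genes), 0.69 for day 10 over progenitor (166 genes) and 0.50 for TNF over day 10 (201 genes). It covers probe behaviour and not the spread between cultures.

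Markers were checked against the labels. All 10 dendritic cell markers, among them Itgax (CD11c), H2-Aa and Ccr7, lay above 428 units on the TNF, day 10 and day 7 arrays, and 2 of 10 did on the progenitor array. Flt3, also in that list, was highest in progenitors, at 1972 units there, 805 at day 7, 517 at day 10 and 614 with TNF. Of 8 measured granulocyte and early myeloid markers, whose summed level was 3764 units at day 10 and 111296 units in progenitors, 3 lay above 428 units at day 10, with Mpo, Ctsg, Myb, Gfi1 and Cd34 under it, and 7 in progenitors. Cd34 was under it in progenitors too, and Kit ran the other way, at 647 units in progenitors, 1308 at day 7 and 1362 at day 10. Macrophage markers summed to 139154 units at day 10 and 10551 units in progenitors, with 7 and 5 of 10 above 428 units and C1qa, C1qb and C1qc under it at day 10. The part of these marker differences in the proteasome values was not tested, and fewer cells of a type and less RNA per cell cannot be told apart. The 11 bacterial control probe sets above 428 units on every array do not come from the cells. Their log2 ratios for day 7 over progenitor were all below 0, from -1.05 to -0.21 with a median of -0.36. They were 0.99 to 1.77 for day 10 over day 7 and 0.45 to 1.43 for day 10 over progenitor. For TNF over day 10 their median was -0.50. The brightest probe sets also had higher ratios at day 10 over day 7 than dimmer ones, with medians of 0.03 to 0.26 in the 3 level bands below the brightest one and 0.998 in that one. What these technical differences contribute to the members' values was not tested.

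Sequences upstream of 4 of these genes are shown because most members differed in the same direction along the course while Psmb6 did not. Each is the 250 bases before the gene start, 5′ to 3′ on the gene's strand, from RefSeq on build GRCm38.p6, in which 37 of the 44 members had an entry. Psmb5 and Psmb6, 2 catalytic genes whose levels differed in opposite directions, both hold TGACNNNGC, the core letters of the antioxidant response element bound by the factors Nfe2l1 and Nfe2l2. Psmb3, with the lowest day 7 over progenitor ratio of the beta ring, holds CCAAT at 2 places, and the inducible gene Psmb9 holds it on the opposite strand, printed as ATTGG. Capitals mark these matches.
Psmb5, chr14:54617996-54618245, minus strand: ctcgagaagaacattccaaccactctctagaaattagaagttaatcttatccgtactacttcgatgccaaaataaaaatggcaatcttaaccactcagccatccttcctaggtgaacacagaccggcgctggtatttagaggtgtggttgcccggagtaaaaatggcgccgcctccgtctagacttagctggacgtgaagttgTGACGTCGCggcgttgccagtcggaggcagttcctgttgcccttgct
Psmb6, chr11:70525107-70525356, plus strand: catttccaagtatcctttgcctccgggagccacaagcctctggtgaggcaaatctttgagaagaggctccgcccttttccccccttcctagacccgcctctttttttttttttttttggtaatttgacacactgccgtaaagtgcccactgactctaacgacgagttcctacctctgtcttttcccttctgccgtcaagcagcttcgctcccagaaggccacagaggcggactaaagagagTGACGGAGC
Psmb3, chr11:97703184-97703433, plus strand: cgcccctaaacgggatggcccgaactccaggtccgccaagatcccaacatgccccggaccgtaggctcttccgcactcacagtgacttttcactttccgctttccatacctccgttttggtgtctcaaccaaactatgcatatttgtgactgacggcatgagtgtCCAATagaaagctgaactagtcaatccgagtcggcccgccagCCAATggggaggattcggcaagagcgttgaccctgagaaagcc
Psmb9, chr17:34187331-34187580, minus strand: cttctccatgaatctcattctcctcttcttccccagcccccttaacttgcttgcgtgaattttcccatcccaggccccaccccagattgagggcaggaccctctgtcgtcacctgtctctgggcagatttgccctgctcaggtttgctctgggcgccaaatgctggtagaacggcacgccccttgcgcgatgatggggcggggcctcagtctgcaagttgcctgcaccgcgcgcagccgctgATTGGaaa

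Both motifs were searched on both strands, they do not overlap in the sequences shown, and they were chosen with the array values known. TGACNNNGC occurred in 12.2% of the 41 member windows, those of Psmb5, Psmb6, Psmc6, Psmd9 and Psmd12, and in 10.2% of all 32851 windows of the same length. CCAAT occurred in 34.1% of member windows and 33.8% of all windows. Both shares were close to those of all windows, and a match is a description of letters only.

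**Figure D1:**
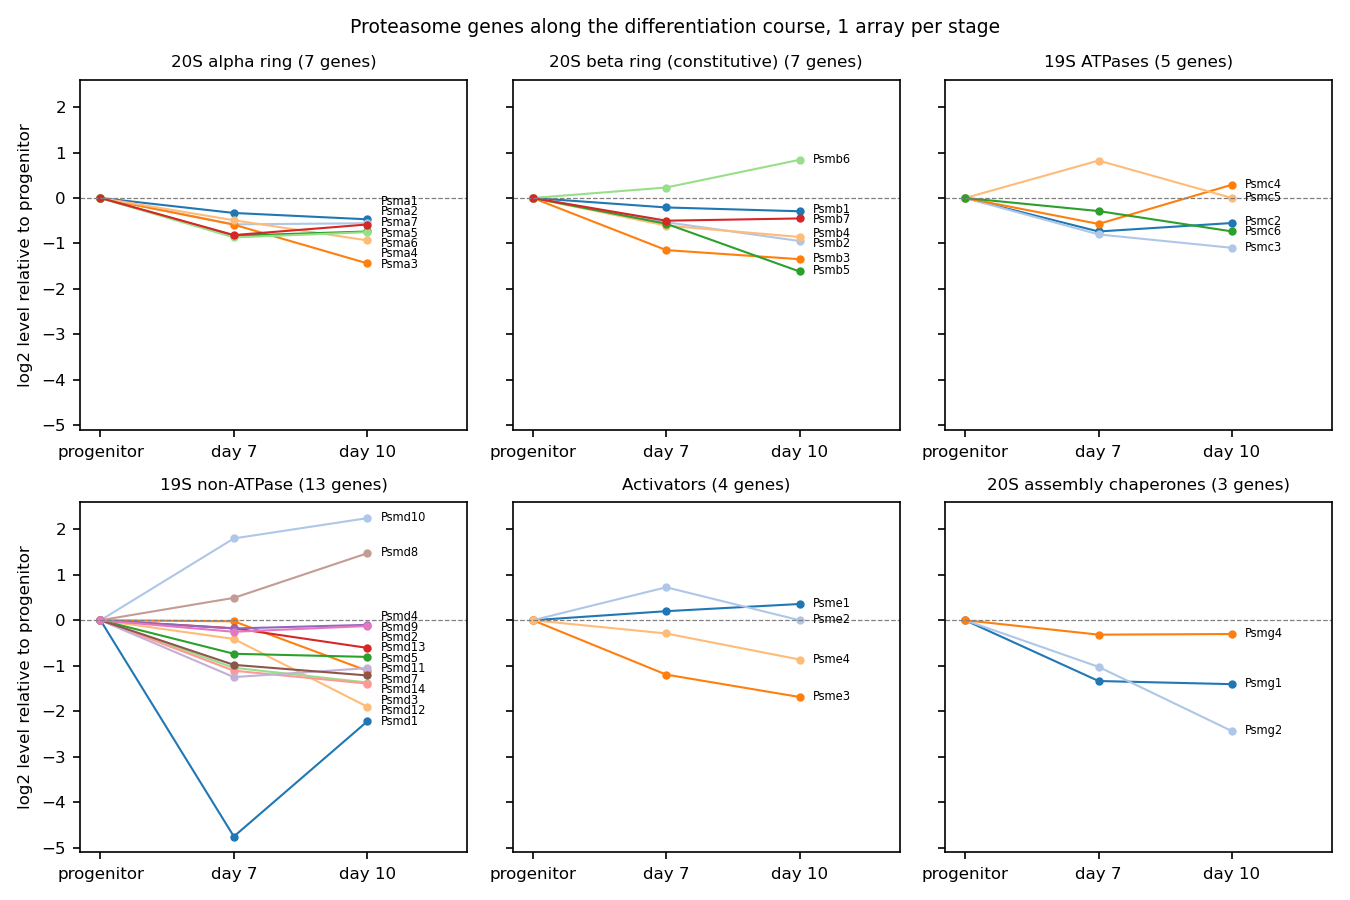
Log2 level relative to the progenitor array for each proteasome gene at day 7 and day 10, in 6 panels by role, with values raised to 105 units first. Each line is 1 gene and each point 1 array. All 7 alpha ring genes run below 0 at both days, while Psmb6, Psmd8, Psmd10 and Psme1 run above it at both days.

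At day 7 most proteasome genes stood moderately lower than in progenitors. Of the 41 members with a ratio, 35 had a ratio below 0 (85.4%), against 52.0% of all 5957 genes, and the median log2 ratio was -0.53, against -0.04 over all genes. At the 2-fold threshold 8 members were lower, with 11.9% of all genes lower, and 1 was higher, with 13.4% of all genes higher. The higher one was Psmd10, under 428 units on both arrays. At 1.5-fold, 17 of 41 members were lower (41.5%), against 23.3% of all genes, and 3 were higher, against 22.7%. Among the 2644 genes with a mean level between 1000 and 16000 units, the range that held 32 of the members, the median was -0.04, and it was -0.57 over those 32 members. The middle 50% of member ratios spanned -0.83 to -0.25, and that of all genes -0.54 to 0.52.

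The difference between day 10 and day 7 was smaller. The median log2 ratio was -0.17 over 40 members and 0.06 over all genes, and 24 of 40 members lay below 0, against 46.3% of all genes. At least 2-fold lower were 4 members, with 8.44% of all genes lower, and 1 was higher, with 11.2% of all genes higher, so the shares of 10.0% and 2.50% were near or under the background. At 1.5-fold 7 members were lower and 4 higher, with 17.9% and 22.9% of all genes.

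Set directly against progenitors, day 10 gave a median log2 ratio of -0.81 over 39 members, against 0.07 over all genes, and 34 of 39 lay below 0, against 47.4% of all genes. At least 2-fold lower were 14 members (35.9%), with 16.8% of all genes lower, and 2 were higher (5.13%), with 20.4% of all genes higher. The 2 higher were Psmd8 and, with its progenitor value raised to 105 units, Psmd10. At 1.5-fold 24 members were lower and 3 higher, with 27.4% and 31.5% of all genes. This comparison shares its progenitor array with the day 7 one and is no independent repeat of it. Of the 32 members above 428 units on the progenitor, day 7 and day 10 arrays, 29 were highest in progenitors (41.3% of all 3298 such genes were), 19 were lower at both steps (27.4% of such genes), and 3, Psmb6, Psmd8 and Psme1, were highest at day 10 (38.8% of such genes).

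**Figure D2:**
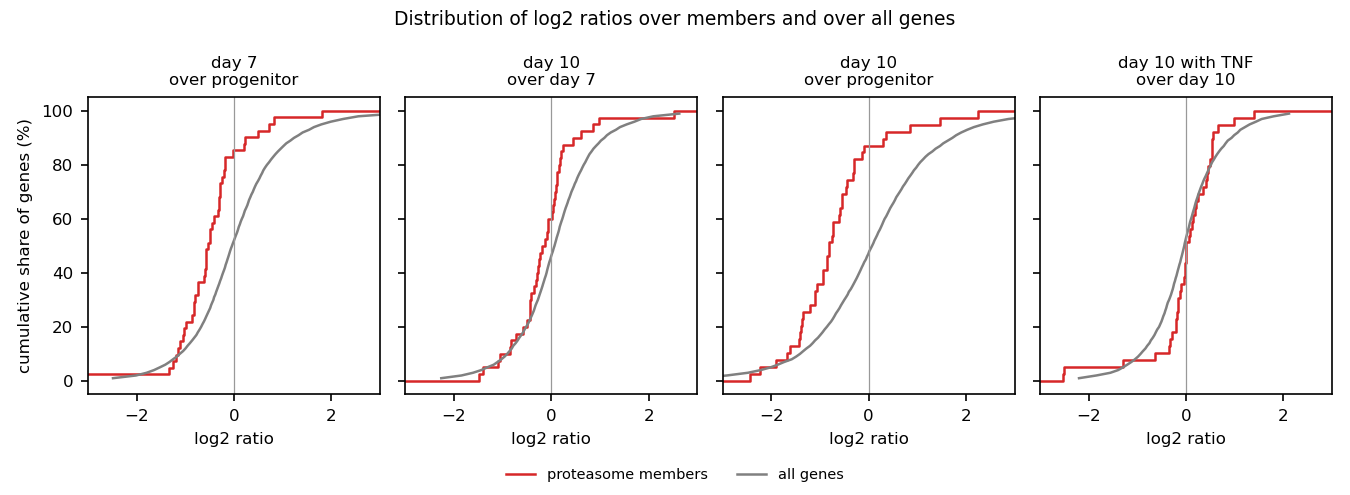
Cumulative share of genes (%) against log2 ratio in 4 comparisons, for the proteasome members (red) and all genes above 105 units (grey). The red curve lies left of the grey one through its middle for day 7 and day 10 over progenitor, with medians of -0.53 and -0.81, and crosses it near 0 for TNF over day 10.

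The alpha ring, which forms the outer rings of the core and the gate through which substrates enter, was lower throughout along the course. All 7 measured genes were lower at day 7 than in progenitors, with log2 ratios between -0.87 and -0.33 and none reaching 2-fold. Psma2, the brightest of them, was at 15994 units in progenitors, 10698 at day 7 and 10888 at day 10. Psma1, the dimmest, was at 2336, 1859 and 1688 units. Day 10 and day 7 differed little in either, and over the ring the median day 10 over day 7 ratio was 0.03. Psma3 had the lowest day 10 over progenitor ratio of the ring, at 13134 units in progenitors, 8750 at day 7 and 4853 at day 10, 2.71-fold lower at day 10 than in progenitors. The suffix of its probe set marks sequence that other genes may share.

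The constitutive beta ring, which lines the catalytic chamber, was also mostly lower, with 6 of 7 genes below 0 at day 7 and 6 of 7 at day 10 over progenitor. Psmb3, a structural subunit, was at 14762 units in progenitors, 6674 at day 7 and 5808 at day 10, so it was 2.21-fold lower at day 7 than in progenitors. Psmb4, also structural and the brightest of the ring, was at 11739, 7707 and 6485 units. Its probe set carries a suffix for sequence that other genes may share, as does the brightest of Psmb1. The other Psmb4 probe sets were dim, at -40.9, 105 and 199 units and at -11.3, -0.67 and 8.40 units, so they do not back this reading. Psmb1 was at 7084, 6133 and 5787 units, and a second Psmb1 probe set of similar brightness read 6946, 5514 and 7117 units, so the reading at day 10 depended on the probe set. Psmb2 was 1.93-fold lower at day 10 than in progenitors.

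The 3 catalytic subunits did not move alike. Psmb5, which cuts after hydrophobic residues, was at 5924 units in progenitors, 4001 at day 7 and 1933 at day 10, 3.07-fold lower at day 10 than in progenitors. Its second probe set lay between -36.4 and 13.6 units on all arrays and gives no reading. Psmb7, which cuts after basic residues, was at 6662, 4714 and 4879 units, lower at both days by less than 1.5-fold. Psmb6, which cuts after acidic residues, was at 3887 units in progenitors, 4561 at day 7 and 6956 at day 10. It was 1.79-fold higher at day 10 than in progenitors and the only beta gene above 0 there. The probe sets used for Psmb5 and Psmb7 carry suffixes for sequence that other genes may share, and that of Psmb6 carries none.

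The ATPases of the regulatory particle, which unfold substrates and open the gate, were read less completely. Psmc1 was at or under 105 units on every array, at 6.46 units in progenitors, -66.8 at day 7 and 48.6 at day 10, and at -55.2 units with TNF, and Psmc5 under 428 units on all 4, so 4 of 6 gave a usable level. Psmc6, the brightest, was at 7225 units in progenitors, 5920 at day 7 and 4343 at day 10. Psmc3 was at 5880, 3375 and 2753 units, 2.14-fold lower at day 10 than in progenitors, and its 2 other probe sets gave log2 ratios of -1.43 and -1.53, beside -1.10 for the brightest. Each of these probe sets carries a suffix for shared or reduced sequence. The set with -1.53 lay under 428 units at day 7 and day 10, at 183 and 222 units. Psmc2 was 1.46-fold lower at day 10 than in progenitors, and Psmc4, near the 428-unit limit, was at 599, 403 and 734 units.

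The non-ATPase subunits, counted together with the chaperones Psmd5, Psmd9 and Psmd10, held most of the members at least 2-fold apart at day 10 over progenitor. Of 13 with a ratio, 7 were lower and 2 higher, where 16.8% of all genes were lower and 20.4% higher. The 2 higher were Psmd8 and Psmd10, and the printed bound for Psmd10, at least 1.16-fold, is under the call threshold. Psmd14, the deubiquitinase that removes the ubiquitin chain, was at 6278 units in progenitors, 3044 at day 7 and 2431 at day 10, so it was 2.06-fold lower at day 7 and 2.58-fold lower at day 10. The lid subunit Psmd3 was at 6685, 3098 and 2547 units and the lid subunit Psmd7 at 7621, 3861 and 3286 units, 2.62-fold and 2.32-fold lower at day 10. In these 3 genes the step lay between the progenitor and day 7 arrays, and the day 10 values were 1.17-fold to 1.25-fold lower than the day 7 ones.

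In Psmd11 and Psmd12, also lid subunits, the day 10 values were the low ones. Psmd11 was at 3484 units in progenitors, 3430 at day 7 and 1614 at day 10, 2.12-fold lower at day 10 than at day 7. Its second probe set was dim, at 141, 157 and 150 units, and the mean over both probe sets gave a log2 ratio of -0.58, under 2-fold, for day 10 over day 7 and -0.51 for day 10 over progenitor. Psmd12 was at 959, 721 and 257 units, at least 1.68-fold lower at day 10 than at day 7. Its probe set, unlike those of Psmd11, carries a suffix for sequence that other genes may share. Psmd13, a further lid subunit, was 1.75-fold lower at day 10 than in progenitors, with its value at day 10 close to that at day 7.

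Psmd8, also a lid subunit, ran the other way. It was at 4449 units in progenitors, 6256 at day 7 and 12341 at day 10, 2.77-fold higher at day 10 than in progenitors. Psmd4, a ubiquitin receptor, was nearly level at 7534, 6647 and 7022 units. Psmd1, a scaffold of the base, was at 2827 units in progenitors, -40.9 at day 7 and 605 at day 10. It was at least 6.60-fold lower at day 7 than in progenitors. With values raised to 105 units it was the 1 member called at least 2-fold higher at day 10 than at day 7. Its printed bound for that step is at least 1.41-fold, under the call threshold. Psmd2 and Psmd6 lay under 428 units on all 4 arrays, Psmd6 at -66.5 units in progenitors, 49.5 at day 7 and 93.4 at day 10, and at 45.1 units with TNF.

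Psmd5, Psmd9 and Psmd10 are chaperones that help assemble the base and are not part of the finished particle. Psmd5 was at 4588 units in progenitors, 1929 at day 7 and 2212 at day 10, 2.38-fold lower at day 7. Psmd9 was at 1685, 1413 and 1543 units, 1.19-fold lower at day 7 than in progenitors. Psmd10, also known as gankyrin, was at 56.3, 364 and 496 units, at least 1.16-fold higher at day 10 than in progenitors. The Psmg chaperones, which assemble the rings of the core, were lower or flat. Psmg1 was at 2044, 810 and 772 units, 2.52-fold lower at day 7 than in progenitors, Psmg2 at 704, 346 and 130 units, at least 1.65-fold lower at day 7, and Psmg4 at 2025, 1626 and 1642 units. Psmg3 was under 428 units throughout, at 34.5 units in progenitors, -40.7 at day 7 and 50.4 at day 10, and at 277 units with TNF.

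**Figure D3:**
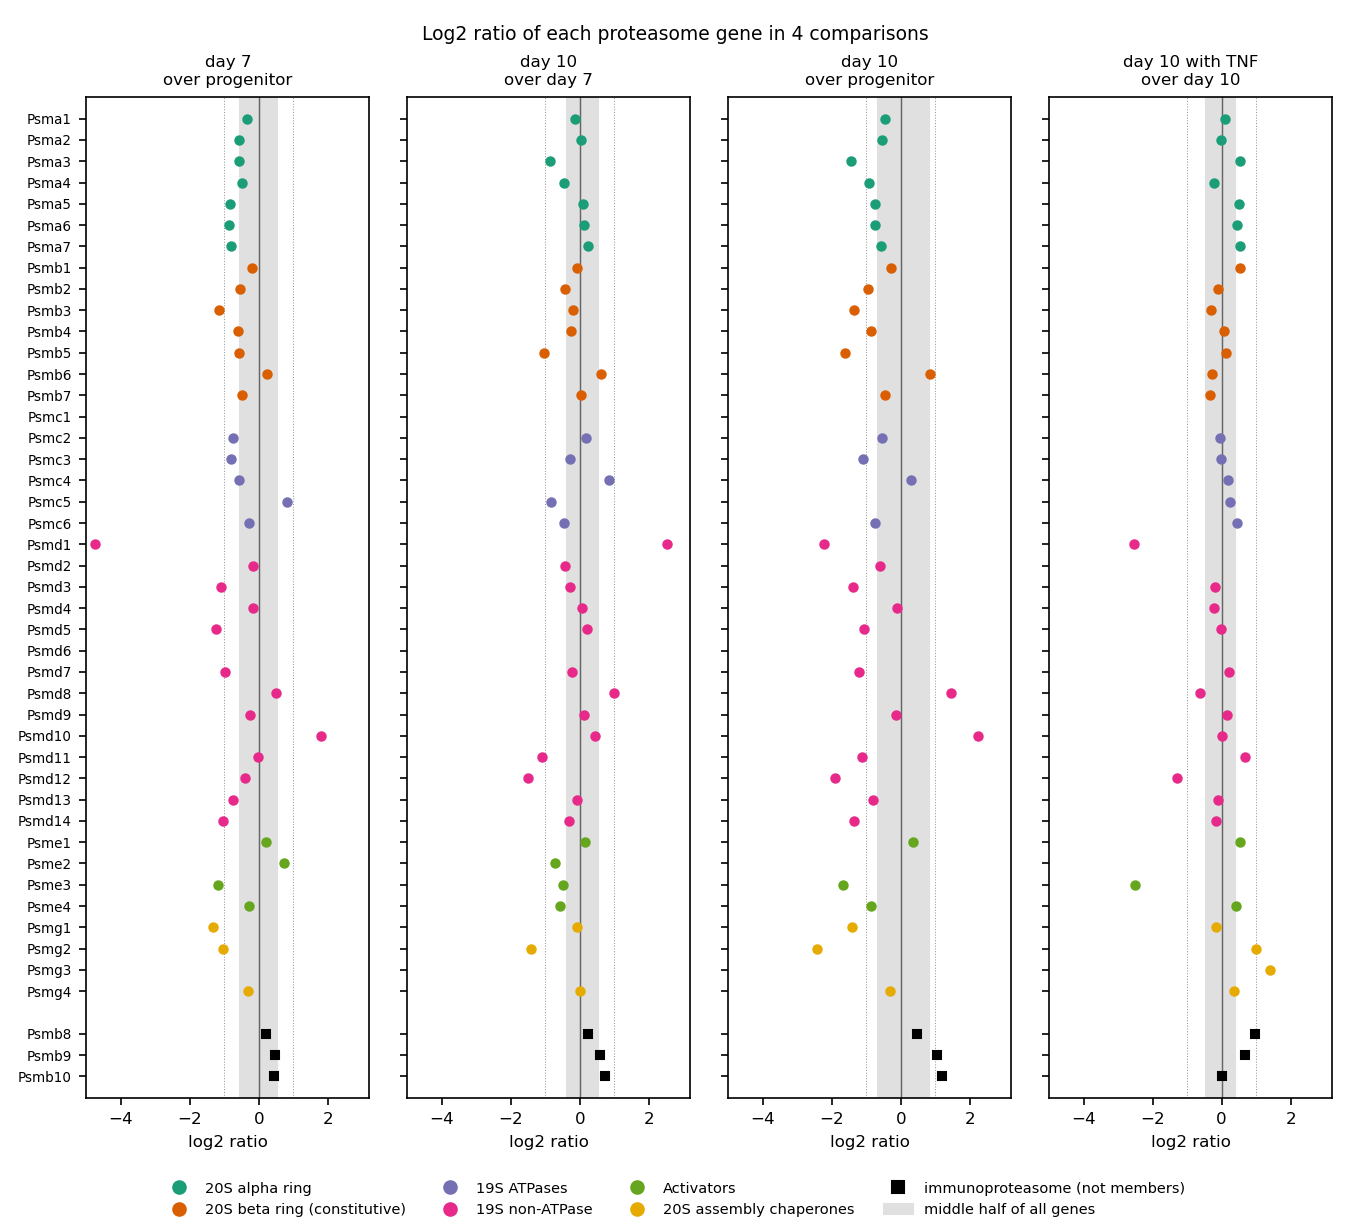
Log2 ratio of each of 42 proteasome genes and of Psmb8, Psmb9 and Psmb10 in 4 comparisons, coloured by role, with the middle 50% of all genes shaded and dotted lines at 2-fold. Genes at or under 105 units on both arrays have no point. Most points lie left of 0 for day 7 and day 10 over progenitor, and Psme3 and Psmd1 stand far left with TNF.

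The activators, caps that open the core without ubiquitin, differed among themselves. Psme1, a subunit of the interferon-inducible activator, was at 5069 units in progenitors, 5819 at day 7 and 6493 at day 10, 1.28-fold higher at day 10 than in progenitors. Psme2, its partner, was under 428 units on every array by its single-symbol probe set. That set was at 81.7 units in progenitors, 173 at day 7 and 33.3 at day 10, and at 36.6 units with TNF. Another probe set, which names Psme2 and a second gene, was left out, so these values do not show that Psme2 is absent. Psme3, a nuclear activator that forms its own ring, was at 3876, 1693 and 1204 units, 2.29-fold lower at day 7 and 3.22-fold lower at day 10 than in progenitors. Psme4, a large activator that works as a single chain, was at 2389, 1953 and 1313 units. Psme1 was higher, and Psme3 and Psme4 lower, at day 10 than in progenitors.

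With TNF the members as a whole hardly differed from day 10. The median log2 ratio was 0.01 over 39 members, against -0.04 over all genes, and 20 members were above 0 and 19 below. At least 2-fold higher was 1 member, Psmg3, under 428 units on both arrays, with 8.84% of all genes higher. At least 2-fold lower were 3 members, Psme3, Psmd1 and Psmd12, with 8.76% of all genes lower. At 1.5-fold 3 members were higher and 4 lower, with 17.5% and 19.2% of all genes.

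Psme3 was at 212 units with TNF, against 1204 at day 10, at least 2.81-fold lower. Psmd1 was at -300 units with TNF and 605 at day 10, at least 1.41-fold lower. Psmd12 lay under 428 units on both arrays, at 101 and 257 units, and so has no fold. Psmd8, which had been higher at day 10 than in progenitors, was at 7969 units with TNF and 12341 at day 10, 1.55-fold lower.

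On the higher side with TNF, 5 of 7 alpha ring genes were above 0, with a ring median of 0.44. Psma3 was at 7083 units with TNF and 4853 at day 10 (1.46-fold), Psma5 at 5190 and 3685 units (1.41-fold), Psma6 at 10120 and 7482 units (1.35-fold), and Psma7 at 4545 and 3139 units (1.45-fold). These 4 were each under 1.5-fold, of the size of the probe-set disagreement. Psma2 was level, at 10799 units with TNF and 10888 at day 10, and Psma4 was 1.16-fold lower. Psmd11 was at 2563 units with TNF and 1614 at day 10, 1.59-fold higher, and Psme1 at 9454 and 6493 units, 1.46-fold higher. Psmb1 was 1.46-fold higher by its brightest probe set, while the second one gave a log2 ratio of -0.06.

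The constitutive catalytic genes did not stand higher with TNF as a group. Psmb5 was at 2111 units with TNF and 1933 at day 10, Psmb6 at 5682 and 6956 units, and Psmb7 at 3833 and 4879 units. Of the regulatory ATPases, Psmc2 and Psmc3 were lower than at day 10 by up to 1.03-fold, and Psmc4 and Psmc6 were 1.13-fold and 1.37-fold higher. Several genes that had been at least 2-fold lower at day 10 than in progenitors stood near their day 10 values. Psmd3 was at 2238 units with TNF and 2547 at day 10, Psmd5 at 2186 and 2212 units, Psmd7 at 3797 and 3286 units, and Psmd14 at 2171 and 2431 units. Psmb3 was at 4646 units with TNF and 5808 at day 10, and Psmc3 at 2737 and 2753 units. Among the chaperones Psmg1 was at 692 units with TNF and 772 at day 10, Psmg2 at 257 and 130 units, Psmg4 at 2085 and 1642 units, and Psmd10 at 498 and 496 units. These differences stayed under 2-fold wherever both arrays lay above 428 units. Of the role groups' brightest and dimmest genes not yet given, Psmb4 was at 6809 units with TNF and 6485 at day 10, Psmc6 at 5968 and 4343 units, and Psma1 at 1792 and 1688 units. Psme4 was at 1747 units with TNF and 1313 at day 10.

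The 3 inducible catalytic genes, which the symbol rule leaves out, give the contrast. Psmb8 was at 6359 units in progenitors, 7382 at day 7 and 8780 at day 10, and at 17144 units with TNF, 1.95-fold above day 10. Psmb9 was at 1610, 2211 and 3310 units along the course, and at 5256 units with TNF, 1.59-fold above day 10. Psmb10 was at 2596, 3538 and 5895 units, and at 5925 units with TNF, level with day 10. All 3 were higher at each step of the course, by 1.38-fold to 2.27-fold at day 10 over progenitor. There 2 of the 3 were at least 2-fold higher, with 20.4% of all genes higher. The log2 ratio of Psmb8 was 0.47, and probe sets in its level band, mean log2 level 13 to 14, had a median of 0.44. Psmb9 and Psmb10 had log2 ratios of 1.04 and 1.18, beside medians of 0.03 and 0.18 in their bands.

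The difference between the log2 ratio of an inducible subunit and that of the constitutive subunit it replaces does not depend on the single factor that scales each array. At day 10 over progenitor it was 2.08 for Psmb8 minus Psmb5 (a 4.23-fold shift), 1.63 for Psmb10 minus Psmb7 (3.10-fold) and 0.20 for Psmb9 minus Psmb6 (1.15-fold). The first 2 exceed the probe-set SD of 0.69, and the last does not. In the first 2 the constitutive gene is read by a probe set whose suffix marks sequence that other genes may share. With TNF over day 10 it was 0.84 for Psmb8 minus Psmb5, 0.36 for Psmb10 minus Psmb7 and 0.96 for Psmb9 minus Psmb6. With TNF the values for Psmb8 and Psmb9 lie closer together than the probe-set SD of 0.50. After quantile normalization the 3 shifts at day 10 over progenitor were 1.94, 1.70 and 0.27 in the same order.

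**Figure D4:**
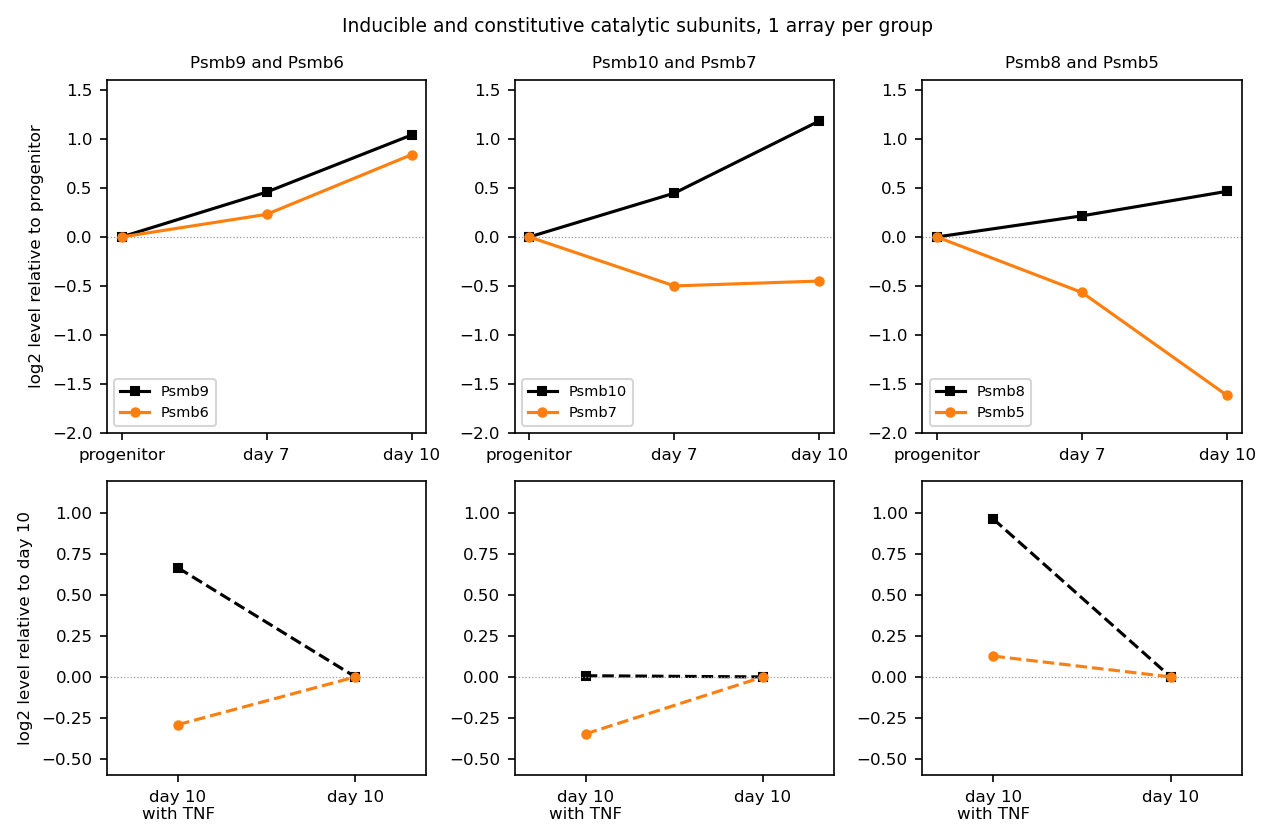
Log2 level of each inducible subunit (black) and the constitutive subunit it replaces (orange), relative to progenitor along the course (top) and relative to day 10 for the array with TNF (bottom); each point is 1 array. Along the course the lines are apart at day 7 and further apart at day 10 for Psmb8 with Psmb5 and Psmb10 with Psmb7. Those of Psmb9 and Psmb6 run close together along the course. With TNF, Psmb9 lies above its day 10 level and Psmb6 below, a log2 difference of 0.96.

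Other genes of the pathway were taken from lists of known factors. Of 14 measured proteasome-bound factors and regulators, 2 passed 2-fold upward and 0 downward at day 7 over progenitor, with 13.4% and 11.9% of all genes. At day 10 over progenitor 2 of 13 were higher and 3 lower, with 20.4% and 16.8% of all genes. The 2 higher genes were Nfe2l1 and Nfe2l2, transcription factors that bind antioxidant response elements, of which Nfe2l1 is known to drive proteasome subunit genes when the proteasome is inhibited. Nfe2l1 was at 615 units in progenitors, 1532 at day 7 and 2090 at day 10, 3.40-fold higher at day 10, and Nfe2l2 was at 2518, 5163 and 5437 units, 2.16-fold higher. Their levels were higher on arrays where most subunit genes were lower. Among the lower were Uchl5 and Usp14, deubiquitinases that sit on the regulatory particle, 3.10-fold and 2.14-fold lower at day 10 than in progenitors, and the shuttle gene Ubqln2, 2.06-fold lower. With TNF 0 of 14 were higher and 0 lower at 2-fold, with 8.84% and 8.76% of all genes.

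Ubiquitin-conjugating genes had a median near 0. Over 22 members of that list above 105 units the median log2 ratio was 0.02 at day 10 over progenitor, with 1 at least 2-fold higher and 4 lower, where 20.4% and 16.8% of all genes were. The lower ones above 428 units were Ube2s and Cdc34, which act in the cell cycle, 3.75-fold and 2.98-fold lower, and Ube2e1, 2.07-fold lower. Ube2w was at least 1.84-fold higher. Of 9 cytosolic peptidases and peptide transport genes, 2 were higher and 1 lower at day 10 over progenitor, near the same shares of all genes. Tap1, a subunit of the transporter that brings peptides to MHC class I, was 2.99-fold higher and Tapbp, the gene of tapasin, 2.32-fold higher, while the peptidase gene Thop1 was at least 1.72-fold lower.

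The 2 members that are not proteasome parts had little weight in the medians. Psme3ip1, which encodes a partner of Psme3, was at 2830 units in progenitors, 2062 at day 7 and 1610 at day 10, and Psmc3ip, a recombination gene, was under 428 units on all arrays. Without them the medians were -0.57, -0.14, -0.81 and 0.04 for day 7 over progenitor, day 10 over day 7, day 10 over progenitor and TNF over day 10.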

How the data were processed

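The authors deposited 1 linear probe-set intensity for each of 12654 probe sets on each of 4 Affymetrix mouse arrays. RNA preparation, labelling and hybridisation followed a published protocol, per the labels. Background method, scaling software and detection calls are not stated in the labels or the file, and 22.8% to 24.3% of values per array lie below 0.

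From these intensities, each array was multiplied by a factor of 0.962 to 1.05 to a common 75th percentile, low values were set to 105 units (40th percentile), or 428 units (60th) for printed folds, and log2 ratios were taken with python 3.11.15 and pandas 2.3.3. Gene names come from the platform annotation (10276 usable probe sets with 1 symbol, 363 with several, 1993 with none), pathway lists from symbols updated through Entrez numbers. The brightest probe set by mean level represents a gene. For 9 members it carried a suffix for shared or reduced sequence. A further probe set that names Psme2 together with a second gene was not used. With 1 array per group no test exists. The ratio code was tested on simulated data. Members, gene lists, motifs and comparisons were chosen with earlier results of these data known. Members are named where at least 2-fold apart above 428 units, and as catalytic, activator, brightest or dimmest genes of a role. Others are given by range or in passing.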

Additional observations from a re-analysis of the deposited data

How the results depend on the processing

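The direction of the median was kept along the course under every alternative run. It spanned -0.57 to -0.50 for day 7 over progenitor, -0.31 to -0.07 for day 10 over day 7, and -0.93 to -0.74 for day 10 over progenitor. For TNF over day 10 it lay around 0, from -0.01 to 0.06. With the floor at the 60th percentile, 0 members were at least 2-fold higher at day 7 over progenitor, 0 at day 10 over day 7, 1 at day 10 over progenitor and 0 with TNF, where 10.5%, 7.26%, 17.3% and 4.71% of all genes were, while 2 were lower at day 10 over day 7 and 1 with TNF, where 4.65% and 5.15% of all genes were. A 1.5-fold rule gave 3 higher and 17 lower at day 7 over progenitor, 4 and 7 at day 10 over day 7, 24 lower at day 10 over progenitor, and 3 higher with TNF. In the same order, 22.7% and 23.3%, 22.9% and 17.9%, 27.4%, and 17.5% of all genes were. Without probe sets of shared or reduced sequence, 2 of 33 members were lower at day 10 over day 7. Psmb5 and Psmd12, lower in the main run, had no ratio under that setting. On values as deposited 2 of 39 members were higher with TNF. No share over all genes is given for these last 2 settings. In the main run 8.44% of all genes were lower at day 10 over day 7 and 8.84% higher with TNF. Of 300 single-gene values under alternatives, 16 moved, none of them past 0 where the ratio was at least 2-fold, and 6 values close to 0 changed sign, for Psmd11 at day 7 over progenitor and for Psmc3 and Psmd5 with TNF. No paired analysis was possible because each group is 1 array. The number of arrays limits the precision, and day, culture and array cannot be told apart.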
